A study of Mus musculus with 16 samples.

Results

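Collagen genes were taken as every row of the deposited expression table whose gene name is Col, digits, a, digits, which gave 44 of 23440 genes. They comprise 11 fibrillar collagens, 6 chains of the basement membrane collagen type IV and 27 genes of other types. The samples were gastrocnemius muscles, the large calf muscle, from 16 male C57Bl6/J mice aged 20 weeks, 1 library per mouse. They form 4 groups of 4: Il13-/- mice (KO) that ran daily on a treadmill for 5 weeks (KO trained), KO mice that did not (KO untrained), wild-type mice with the same training (WT trained) and wild-type mice without it (WT untrained). No other allele or agent is named in the labels, and the deleted piece of Il13, the gene of the cytokine interleukin-13, is not given in the sources used here. Levels are in RPKM, reads divided by gene length and by the reads of the library, so that genes of different length can be compared.

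Collagens are extracellular proteins whose chains wind around each other into a helical rod. Fibrillar types I, III and V form the fibrils of tendon, fascia and the connective tissue between muscle fibres, where fibroblasts make most of them. Type IV forms the sheet-like network of the basement membrane around each muscle fibre and vessel. Type VI makes beaded microfilaments next to that membrane, types XV and XVIII sit at its outer face, and the FACIT collagens such as XII and XIV attach to the surface of fibrils. Interleukin-13 acts through receptors that activate Stat6 and is known from liver and lung as a signal that raises collagen synthesis.

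The 16 libraries held 16307025 to 20074677 reads, solved from the steps between low values. The listed genes took 75.6% to 83.5% of these. Il13 itself had 0 reads in all 8 WT libraries and at most 2 in a KO library, against a floor of 3 reads that stands at 0.125 to 0.153 RPKM, so it gave no check of the genotype labels. The skeletal muscle markers were the most abundant of the marker lists, with a summed level of 72616 to 95518 RPKM over Acta1, Ckm, Myh4, Myh1, Tnnt3, Mylpf, Atp2a1 and Pvalb. P-values of the limma comparisons that follow rest on the spread between mice of a group, pooled over the 4 groups. Those of the correlations come from shuffling all 16 libraries, so differences between groups enter them. In whole muscle, fewer cells of a type and less RNA per cell cannot be told apart.

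Of the 44 collagen genes, 20 reached 1 RPKM in at least 4 of 16 libraries and 24 did not. Those reaching it were 7 of 11 fibrillar genes (Col1a1, Col1a2, Col3a1, Col5a1, Col5a2, Col5a3 and Col11a2), 2 of 6 type IV genes (Col4a1 and Col4a2) and 11 of 27 others (Col6a1, Col6a2, Col6a3, Col8a1, Col8a2, Col12a1, Col14a1, Col15a1, Col16a1, Col18a1 and Col22a1). In all 16 libraries, 14 of them were at or above 1 RPKM. Just inside the threshold stood Col8a2, at 1 RPKM in 4 libraries, and just outside it Col20a1, in 3. All collagens together took 0.0916% to 0.193% of the reads of a library.

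Col1a2, which encodes the less numerous chain of type I collagen, had the highest mean level, 42.9 RPKM over 16 libraries. It was followed by Col1a1 at 29.3, Col3a1 at 26.8, Col4a1 at 23.3, Col6a1 at 18.1, Col4a2 at 18.1 and Col6a2 at 16.6 RPKM. These 7 genes held 77.2% to 82.7% of the summed collagen RPKM of a library. Col1a2 lay above Col1a1 in 16 of 16 libraries, Col4a1 above Col6a1 in 16 of 16, and Col6a2 above Col15a1 in 16 of 16, each by more than the SD of the paired difference. Col1a1 lay above Col3a1 in 10 of 16 libraries and Col3a1 above Col4a1 in 11 of 16, differences within that SD, so these neighbours in the order were not separated.

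A middle tier followed. Col15a1 averaged 6.36 RPKM, Col6a3, the longest chain of type VI, 5.69 RPKM, and Col5a2 and Col5a1, chains of the type V collagen that starts fibrils, 4.21 and 4.19 RPKM. Col22a1, known in mice from the junction between muscle and tendon, averaged 3.32 RPKM, Col5a3 3.19 RPKM and Col18a1 2.27 RPKM. The lowest of the 20 were Col14a1 at 1.29, Col11a2 at 1.17, Col16a1 at 1.16, Col12a1 at 1.14, Col8a1 at 1.13 and Col8a2 at 0.753 RPKM. Among those last 6, Col8a1 exceeded Col8a2 by 0.376 RPKM on average, more than the SD of their paired difference of 0.318 RPKM, and the other neighbours differed by less than that SD.

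By class, fibrillar genes held 45.4% to 59.3% of the summed collagen RPKM, type IV 15.7% to 24.9% and the other types 24.3% to 32.7%. The fibrillar sum was 113 ± 34.4 RPKM in KO trained, 139 ± 39.9 in KO untrained, 105 ± 17.2 in WT trained and 95.7 ± 14.7 in WT untrained mice (SD, n = 4 each). The type IV sum was 40.6 ± 4.61 RPKM in KO trained, 51.5 ± 15.8 in KO untrained, 39.3 ± 6.74 in WT trained and 38.8 ± 6.20 in WT untrained mice. KO untrained mice thus had the highest mean and the widest spread of the type IV sum, and the highest mean of the fibrillar sum.

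**Figure D1:**
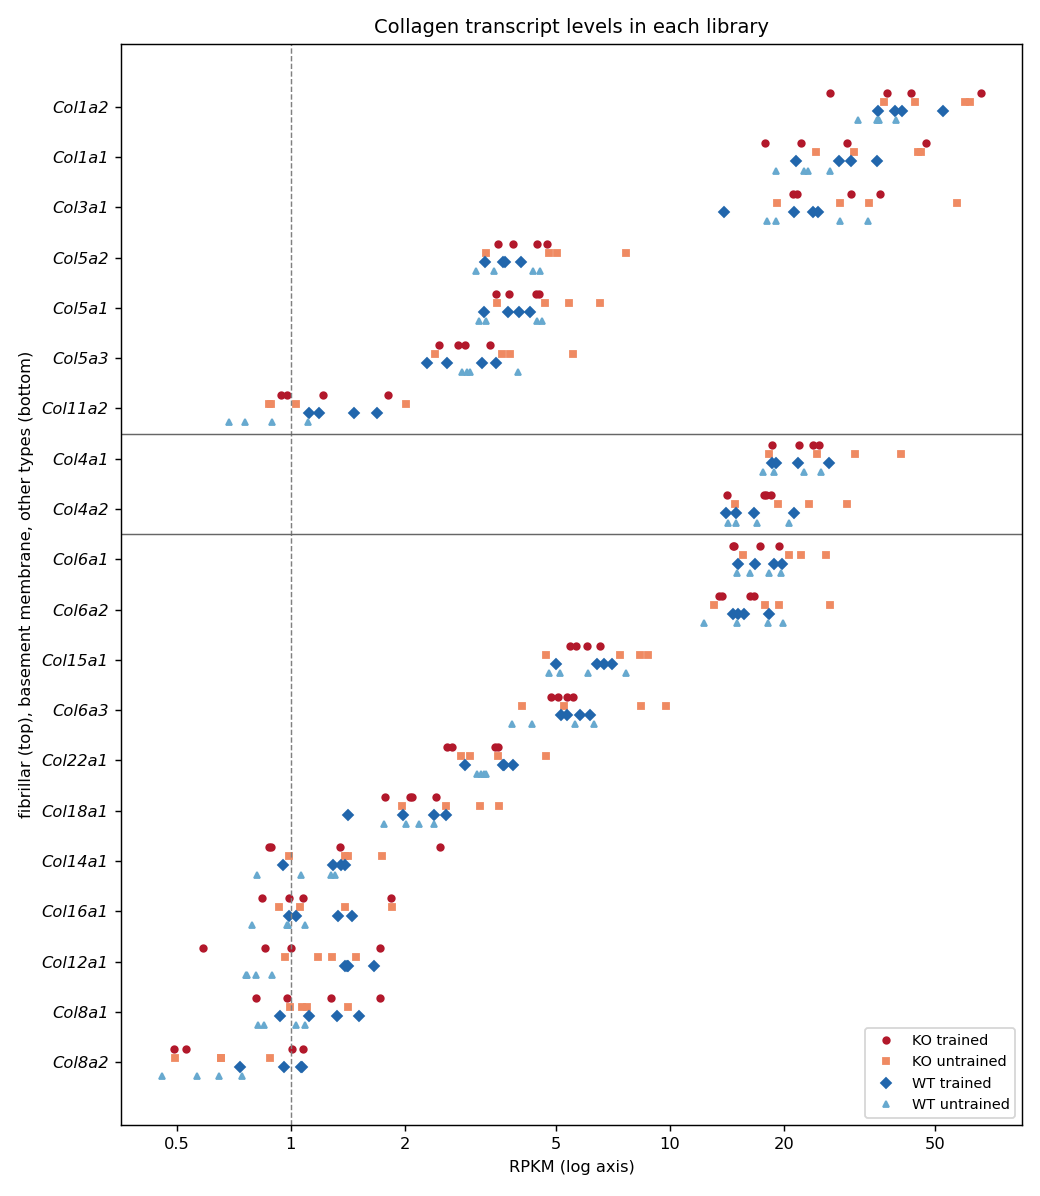
RPKM (log axis) of the 20 collagen genes that reached 1 RPKM (dashed line) in at least 4 of 16 libraries, with fibrillar genes at the top, type IV in the middle and other types at the bottom; each point is 1 mouse and the marker gives its group. Col1a2 averaged 42.9 RPKM and Col8a2 0.753 RPKM, and the points of the 4 groups overlap for nearly every gene.

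The 24 genes under the threshold had means between 0.00239 RPKM (Col10a1, the hypertrophic cartilage collagen) and 0.837 RPKM (Col20a1). They include Col2a1, the main cartilage collagen, with 1 to 13 reads a library, Col4a3, Col4a4, Col4a5 and Col4a6, the remaining type IV chains, with means of 0.315, 0.285, 0.489 and 0.0826 RPKM, and Col7a1 of the skin's anchoring fibrils at 0.721 RPKM. Col11a1, a minor fibrillar chain known best from cartilage, stood at 0.495 RPKM. The transmembrane collagens Col13a1, Col17a1, Col23a1 and Col25a1 had means of 0.347, 0.0531, 0.478 and 0.0269 RPKM. Col10a1 had 0 or 1 read and Col6a4 at most 3 reads in every library, at or under the floor. None of these 24 was tested.

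Between groups, the values of 4 of these genes did not overlap in at least 1 comparison. They were picked after their values were seen. Col20a1, a FACIT collagen, was at 0.736, 0.643, 0.741 and 0.726 RPKM in KO trained mice, against 1.17, 1.01, 0.999 and 0.875 RPKM in KO untrained mice. Col13a1, a transmembrane collagen known from the junction of nerve and muscle, was at 0.634, 0.373, 0.326 and 0.367 RPKM in WT trained mice, against 0.243, 0.257, 0.247 and 0.274 RPKM in WT untrained mice. Its KO untrained values, 0.364, 0.425, 0.314 and 0.292 RPKM, also lay above the WT untrained ones. Col26a1 was lower, at 0.109 against 0.175 RPKM on average, and Col4a6 higher, at 0.0888 against 0.0564 RPKM, in KO trained than in WT trained mice, both without overlap in RPKM and both resting on at most 15 reads a library. For Col26a1 the nearest values were 0.134 RPKM in KO trained 3 and 0.136 RPKM in WT trained 1. Its reads did overlap, with 7 in KO trained 3 and 6 in WT trained 1. By comparison, 1 of 24 did not overlap with training in KO and 1 of 24 with training in WT. For KO against WT it was 1 of 24 in untrained mice, and 1 higher and 1 lower in trained mice. Among the 10171 genes tested, the groups of 4 did not overlap in either direction for 9.43% with training in KO, 6.37% with training in WT, 3.95% for KO against WT in untrained mice and 8.48% in trained mice.

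Some libraries stood apart. KO untrained 1 had the highest level of the 16 libraries for 11 of the 20 genes, with a median deviation of 0.59 on the log2 scale from each gene's mean over 16 libraries. KO trained 3 lay above the mean for 20 of 20 genes and was the highest library for 4. KO untrained 3 was above it for 18 of 20 and highest for 3. KO untrained 4, WT untrained 1 and WT untrained 3 were each above it for 1 of 20. Most counts and medians below that rest on KO untrained mice are given with and without KO untrained 1, as are the differences of several genes. The ratios of chain levels and the skeletal muscle markers are given with it only.

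**Figure D2:**
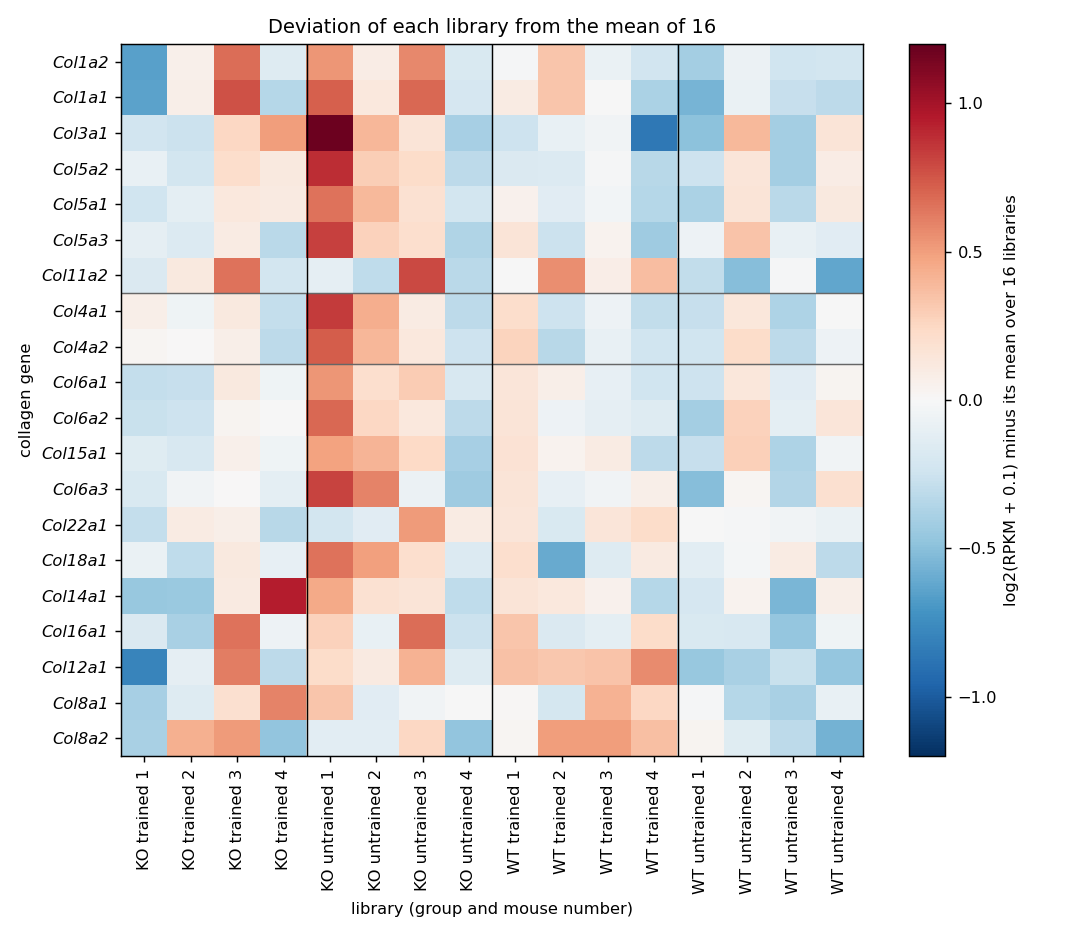
Log2(RPKM + 0.1) of the 20 genes minus each gene's mean over 16 libraries, with genes in rows (fibrillar, type IV, other types) and libraries in columns by group; red is above the mean and blue below. KO untrained 1 is the highest library for 11 of 20 genes, and Col12a1 is above its mean in all 4 WT trained and below it in all 4 WT untrained libraries.

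How the Il13 deletion bears on collagen transcripts without training was asked by setting KO untrained against WT untrained mice. All 20 genes had higher group means on the log2 scale in KO untrained mice, by 0.10 (Col22a1) to 0.64 (Col1a1), with a median of 0.36, whereas 51.4% of all 10171 genes tested were above 0 and their median was 0.00. Of the 190 pairs of these 20 genes, 163 had a Pearson r above 0 over the libraries. Their signs are therefore not independent, here or in the comparisons below. None of the 20 passed an adjusted p of 0.05 in limma, against 0.0492% of all genes, or in limma voom on recovered reads. At an unadjusted p under 0.05 stood 4 of 20, Col12a1, Col1a1, Col18a1 and Col5a1, all higher, against 3.22% of all genes that were higher at that level. All 4 had an adjusted p of 0.780 in limma. Without KO untrained 1 all 20 were still above 0, the median was 0.19, and Col12a1 alone stood at an unadjusted p under 0.05. Without KO untrained 4 the median was 0.51.

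Training in KO mice, KO trained against KO untrained, gave lower means for 17 of 20 genes, with a median log2 difference of -0.28. Over all genes, 64.9% were below 0 with a median of -0.06. None of the 20 passed in limma, where 0% of all genes did, nor in voom. At an unadjusted p under 0.05 stood 2 of 20, Col6a1 and Col18a1, both lower, against 8.90% of all genes that were lower at that level. For none of the 20 were the 4 KO trained libraries all on one side of the 4 KO untrained ones, as they were for 9.43% of all genes. The 4 KO untrained libraries stand on the other side of this comparison from the preceding one, so the 2 results share their data. Without KO untrained 1, 15 of 20 were below 0, the median was -0.14, no gene stood at an unadjusted p under 0.05, and Col3a1 and Col14a1 turned from below to above 0. Without KO untrained 4 the median was -0.46.

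Training in WT mice, WT trained against WT untrained, had 13 of 20 genes above 0 and a median of 0.11, against 52.4% and 0.01 over all genes. The median was 0.05 without WT untrained 1, 0.17 without WT untrained 2, 0.03 without WT untrained 3 and 0.07 without WT trained 1. None of the 20 passed in limma, where 0.187% of all genes did, nor in voom. At an unadjusted p under 0.05 stood Col12a1, Col8a2 and Col11a2, all higher, against 6.11% of all genes. For Col12a1 and Col11a2, 2 of 20 genes, every WT trained library lay above every WT untrained one, as did 3.76% of all genes.

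The difference of the training responses, KO minus WT, was below 0 for 20 of 20 genes, with a median of -0.35. Over all genes, 61.6% were below 0 with a median of -0.05. None of the 20 passed in limma, as 0% of all genes did, nor in voom, and 1 of 20, Col12a1, stood at an unadjusted p under 0.05, against 6.05% of all genes that were lower at that level. This comparison uses all 16 libraries, KO untrained 1 among them, and without that library 18 of 20 were below 0, with a median of -0.25 and Col3a1 and Col5a2 above 0.

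In trained mice, KO trained against WT trained, 7 of 20 genes were above 0 and 13 below, with a median of -0.06, and over all genes 34.8% were above 0 with a median of -0.05. With 1 library left out, the median of the 20 was 0.01 (KO trained 1), -0.02 (KO trained 2), -0.13 (KO trained 3) or -0.02 (WT trained 1). None of the 20 passed in limma, where 0.0885% of all genes did, nor in voom. Col12a1 was the 1 gene of 20 at an unadjusted p under 0.05, lower in KO trained mice, against 9.65% of all genes. For no collagen did the groups separate, whereas they did for 8.48% of all genes.

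**Figure D3:**
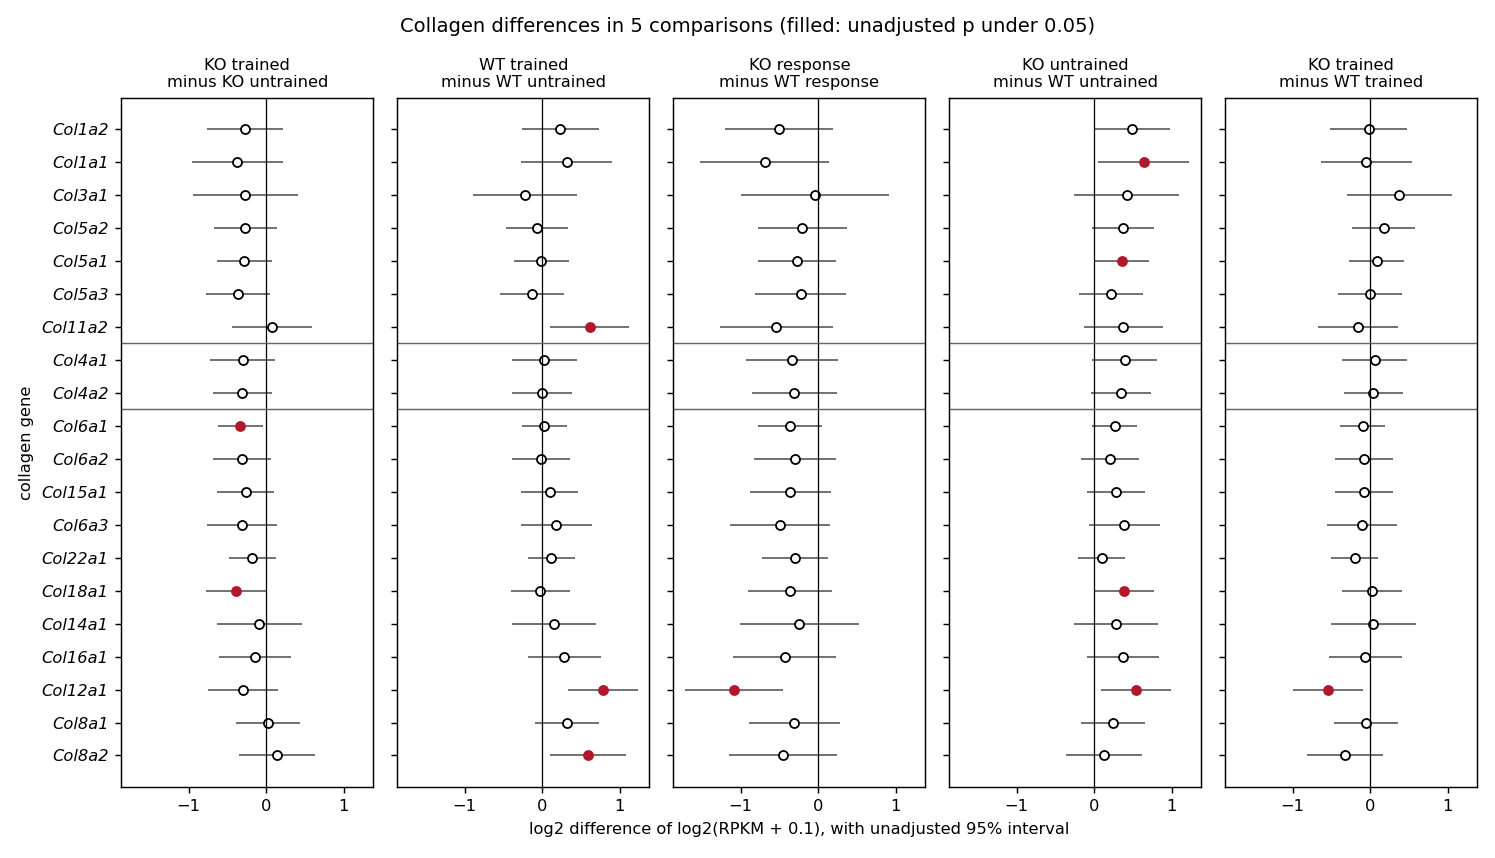
Log2 differences of the 20 genes in 5 comparisons, with unadjusted 95% intervals from limma and filled points where the unadjusted p was under 0.05. In KO untrained minus WT untrained all 20 points lie above 0, in KO response minus WT response all 20 lie below it, and no point passed an adjusted p of 0.05.

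Type I collagen is the main fibril protein, and its genes are Col1a1 (chr11:94936270-94951856, plus strand) and Col1a2 (chr6:4505697-4541543, plus strand), given here and below with the deposited table's mm10 coordinates of the whole gene, introns included. Col1a1 was at 17.9, 29.4, 47.5 and 22.1 RPKM in KO trained mice and at 46.0, 30.7, 45.2 and 24.3 RPKM in KO untrained mice. It was at 30.1, 35.3, 28.01 and 21.5 RPKM in WT trained mice and at 19.0, 26.4, 23.2 and 22.6 RPKM in WT untrained mice. KO trained 3, KO untrained 1 and KO untrained 3 stood above all other libraries, and KO untrained 4 lay within the WT untrained range. The KO minus WT difference in untrained mice was 0.64 ± 0.27 (log2, SE) with an adjusted p of 0.780 in limma, and 0.51 ± 0.29 without KO untrained 1. The difference of the training responses was -0.69 ± 0.39, with an adjusted p of 0.680 in limma.

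Col1a2 was at 26.5, 43.3, 66.4 and 37.4 RPKM in KO trained mice and at 59.9, 44.3, 62.0 and 36.6 RPKM in KO untrained mice. It was at 41.1, 52.4, 39.3 and 35.4 RPKM in WT trained mice and at 31.4, 39.5, 35.2 and 35.6 RPKM in WT untrained mice. The order of the libraries was nearly that of Col1a1. In untrained mice KO minus WT was 0.49 ± 0.23, with an adjusted p of 0.780 in limma.

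Col3a1 encodes type III collagen, which forms thin fibrils together with type I. It was at 21.7, 21.2, 30.1 and 35.95 RPKM in KO trained mice and at 57.3, 33.5, 28.2 and 19.2 RPKM in KO untrained mice. It was at 21.3, 23.9, 24.6 and 13.9 RPKM in WT trained mice and at 18.01, 33.3, 19.1 and 28.2 RPKM in WT untrained mice. KO untrained 1 was the highest library, as it was among the high ones for type I, whereas KO trained 4 was second highest for Col3a1 and low for Col1a1. The unadjusted 95% interval of its difference held 0 in every comparison, with values from -0.27 ± 0.31 with training in KO to 0.42 ± 0.31 for KO against WT in untrained mice. These were 0.01 ± 0.28 and 0.14 ± 0.28 without KO untrained 1.

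To show how unlike the upstream sequences of these fibrillar genes are, the 250 bases before the transcription start of Col1a2 and Col3a1 are given from RefSeq (GRCm38.p6, plus strand in both genes). Capitals mark CCAAT, the GC box written GGGCGG and the TATA box written TATAAA, searched on both strands. A match is only a match of letters. The Col1a2 stretch, chr6:4505368-4505617, holds 1 CCAAT and 2 GC boxes and is 62.0% G or C. The Col3a1 stretch, chr1:45311288-45311537, holds 1 TATA box and is 35.2% G or C. RefSeq starts Col1a2 79 bases from the start in the deposited table and Col3a1 at the same base.
Col1a2: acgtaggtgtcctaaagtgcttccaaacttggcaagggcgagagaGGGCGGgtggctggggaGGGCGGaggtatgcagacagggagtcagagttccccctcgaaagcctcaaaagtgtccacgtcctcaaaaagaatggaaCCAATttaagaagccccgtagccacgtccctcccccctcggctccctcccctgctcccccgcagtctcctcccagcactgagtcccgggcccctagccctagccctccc
Col3a1: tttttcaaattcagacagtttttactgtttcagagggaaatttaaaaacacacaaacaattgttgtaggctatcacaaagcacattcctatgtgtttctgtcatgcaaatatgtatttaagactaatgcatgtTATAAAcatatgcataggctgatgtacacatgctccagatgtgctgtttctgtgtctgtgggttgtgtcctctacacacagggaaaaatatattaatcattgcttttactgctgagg
RefSeq stretches were found for 35 of 44 collagens and 15 of the 20 tested ones, Col1a1 and Col12a1 not among them. Of those 15, 6 held CCAAT, 10 a GC box and 2 a TATA box. Over all 32851 stretches of this length the shares were 33.9%, 32.7% and 12.4%, counted on either strand.

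The type V genes, whose protein lies inside type I fibrils, varied over the libraries with Col3a1 (r = 0.927 for Col5a1) and less closely with Col1a1 (r = 0.665), a difference in r that was not tested. Col5a1 had means of 4.05 ± 0.509 RPKM in KO trained, 5.04 ± 1.27 in KO untrained, 3.81 ± 0.446 in WT trained and 3.87 ± 0.770 in WT untrained mice (SD, n = 4 each). Its KO minus WT difference in untrained mice was 0.36 ± 0.17, with an unadjusted p of 0.0473 and an adjusted p of 0.780 in limma. Col5a2 showed 0.38 ± 0.19 there (adjusted p = 0.780 in limma). The differences were 0.22 ± 0.16 for Col5a1 and 0.17 ± 0.16 for Col5a2 without KO untrained 1. Col5a3, the rarer chain of type V, was at 2.88, 2.77, 3.35 and 2.46 RPKM in KO trained mice, against 5.57, 3.80, 3.599 and 2.41 RPKM in KO untrained mice. Its WT trained values were 3.48, 2.58, 3.20 and 2.29 RPKM, and its WT untrained values 2.97, 3.97, 2.91 and 2.82 RPKM. The groups overlap, KO untrained 1 is the highest of the 16, and training in KO gave -0.36 ± 0.20 (adjusted p = 0.420 in limma), or -0.17 ± 0.17 without that library.

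Col11a2, a minor fibrillar chain known mainly from cartilage, was at 1.116, 1.69, 1.19 and 1.47 RPKM in WT trained mice, against 0.891, 0.756, 1.11 and 0.688 RPKM in WT untrained mice, which do not overlap by a narrow margin. It was at 0.980, 1.22, 1.81 and 0.943 RPKM in KO trained mice, against 1.03, 0.888, 2.01 and 0.875 RPKM in KO untrained mice, so that KO trained 3 and KO untrained 3 exceeded all WT libraries. Training in WT gave 0.61 ± 0.24 (unadjusted p = 0.0222, adjusted p = 0.314 in limma), and training in KO 0.08 ± 0.24. Their difference was -0.54 ± 0.34 (adjusted p = 0.702 in limma).

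The type IV genes Col4a1 (chr8:11198423-11312826, minus strand) and Col4a2 (chr8:11312829-11449287, plus strand) encode the chains of the common basement membrane network. Col4a1 was at 23.8, 21.9, 24.7 and 18.6 RPKM in KO trained mice and at 40.8, 30.8, 24.4 and 18.3 RPKM in KO untrained mice. It was at 26.3, 19.1, 21.8 and 18.6 RPKM in WT trained mice and at 18.8, 25.01, 17.6 and 22.6 RPKM in WT untrained mice. KO untrained 1 and 2 stand above all other libraries and KO untrained 4 among the lowest. KO minus WT was 0.39 ± 0.20 in untrained mice (adjusted p = 0.780 in limma), training in KO gave -0.30 ± 0.20 (adjusted p = 0.486 in limma) and training in WT 0.03 ± 0.20, with an unadjusted 95% interval of -0.39 to 0.45. Leaving out KO untrained 1 gave 0.20 ± 0.17 for KO minus WT in untrained mice and -0.11 ± 0.17 for training in KO.

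Col4a2 was at 17.98, 17.7, 18.5 and 14.2 RPKM in KO trained mice and at 29.3, 23.3, 19.3 and 14.9 RPKM in KO untrained mice. It was at 21.2, 14.1, 16.6 and 14.98 RPKM in WT trained mice and at 14.99, 20.6, 14.2 and 17.0 RPKM in WT untrained mice. The same libraries were high as for Col4a1. Type IV genes lie in head-to-head pairs, and in the deposited table the starts of Col4a1 and Col4a2 are 3 bases apart. Those of Col4a4 and Col4a3 on chromosome 1 are 72 bases apart, and those of Col4a6 and Col4a5 on chromosome X 1343 bases. The 30 bases over the starts of Col4a1 and Col4a2, chr8:11312813-11312842 on the plus strand of GRCm38.p6, are shown because both genes are read outward from here; capitals run from the start of Col4a1 to that of Col4a2.
Col4a1 and Col4a2 starts: ggcggcgtctccaAGGGgaggaccctgcgg
Only the Col4a1 and Col4a2 pair reached the 1 RPKM threshold.

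Type VI genes form the microfilaments around muscle fibres, and their loss causes muscle disease in humans. Col6a1 (chr10:76708792-76726044, minus strand) was at 14.6, 14.8, 19.4 and 17.3 RPKM in KO trained mice, against 25.9, 20.6, 22.1 and 15.6 RPKM in KO untrained mice. It was at 19.8, 18.9, 16.8 and 15.2 RPKM in WT trained mice, against 15.02, 19.6, 16.3 and 18.3 RPKM in WT untrained mice. In KO mice 3 of the 4 untrained values lie above all trained ones, and in WT mice the groups overlap throughout. Training in KO gave -0.33 ± 0.14 (unadjusted p = 0.0267, adjusted p = 0.303 in limma), training in WT 0.03 ± 0.14 and their difference -0.36 ± 0.19 (adjusted p = 0.657 in limma). Without KO untrained 1, training in KO gave -0.23 ± 0.13, with an unadjusted p of 0.109 in limma across all genes.

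Col6a2 was at 13.5, 13.8, 16.7 and 16.3 RPKM in KO trained mice, against 26.5, 19.5, 17.8 and 13.1 RPKM in KO untrained mice. It was at 18.2, 15.7, 15.2 and 14.7 RPKM in WT trained mice, against 12.3, 19.9, 15.003 and 18.1 RPKM in WT untrained mice. KO untrained 1 is again the highest, and training in KO gave -0.31 ± 0.18 (adjusted p = 0.440 in limma), or -0.14 ± 0.15 without that library. Col6a3 averaged 5.21 ± 0.297 RPKM in KO trained, 6.88 ± 2.66 in KO untrained, 5.62 ± 0.458 in WT trained and 5.03 ± 1.14 in WT untrained mice (SD, n = 4 each). Its largest difference was the one between the training responses, -0.49 ± 0.30 (adjusted p = 0.690 in limma), or -0.30 ± 0.26 without KO untrained 1.

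Col15a1 and Col18a1 encode the multiplexins of the basement membrane zone, and the Col18a1 protein is the source of the fragment endostatin. Col18a1 (chr10:77052179-77166530, minus strand) was at 2.09, 1.78, 2.41 and 2.06 RPKM in KO trained mice, against 3.54, 3.16, 2.57 and 1.97 RPKM in KO untrained mice. It was at 2.56, 1.42, 1.98 and 2.39 RPKM in WT trained mice, against 2.02, 2.17, 2.38 and 1.76 RPKM in WT untrained mice. KO untrained 1, 2 and 3 lie above every KO trained library and KO untrained 4 within them. Training in KO gave -0.39 ± 0.18 (unadjusted p = 0.0475, adjusted p = 0.357 in limma) and KO minus WT in untrained mice 0.39 ± 0.18 (unadjusted p = 0.0471, adjusted p = 0.780 in limma). These differences were -0.27 ± 0.19 and 0.27 ± 0.19 without KO untrained 1, neither at an unadjusted p under 0.05. In untrained mice Col15a1 had a KO minus WT difference of 0.28 ± 0.17 (adjusted p = 0.790 in limma) and, with training in KO, one of -0.26 ± 0.17 (adjusted p = 0.495 in limma), or 0.18 ± 0.18 and -0.16 ± 0.18 without KO untrained 1.

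Col12a1 (chr9:79598991-79718678, minus strand) encodes type XII collagen, a FACIT that binds type I fibrils in tendon and fascia, and it ranked first by p in 4 of the 5 comparisons among the 20 genes. It was at 0.586, 1.003, 1.72 and 0.856 RPKM in KO trained mice, against 1.29, 1.18, 1.48 and 0.967 RPKM in KO untrained mice. It was at 1.41, 1.39, 1.41 and 1.66 RPKM in WT trained mice, against 0.766, 0.810, 0.891 and 0.764 RPKM in WT untrained mice. In WT mice the groups are apart and narrow, whereas the KO trained values span from below every other library to above every other library. Training in WT gave 0.79 ± 0.21, or 1.73-fold on the log2(RPKM + 0.1) scale, with an unadjusted 95% interval of 0.34 to 1.24 (unadjusted p = 0.00184, adjusted p = 0.116 in limma). This adjusted p was 0.0292 with only the WT groups in the fit and 0.0362 without KO trained 3, both under 0.05, and 0.318 without WT trained 4.

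Training in KO gave Col12a1 a difference of -0.30 ± 0.21 (adjusted p = 0.524 in limma), and the difference of the responses was -1.08 ± 0.30 (unadjusted p = 0.00227, adjusted p = 0.526 in limma), the 32nd smallest p of 10171 genes. Over 25 alternative settings this difference of the responses ran from -1.34 to -0.60, and its adjusted p in limma from 0.056 to 0.849. KO minus WT was 0.54 ± 0.21 in untrained mice (unadjusted p = 0.0220, adjusted p = 0.780 in limma). There every KO untrained value exceeded every WT untrained one, as for 1.58% of all genes. In trained mice KO minus WT was -0.55 ± 0.21 (unadjusted p = 0.0205, adjusted p = 0.287 in limma), and KO trained 3 alone exceeded the WT trained values.

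None of the 3 other FACIT genes tested, of 9 FACIT genes in the table, reached an unadjusted p of 0.05 in any comparison. Col14a1, also a fibril-surface collagen, averaged 1.40 ± 0.752 RPKM in KO trained, 1.39 ± 0.308 in KO untrained, 1.25 ± 0.199 in WT trained and 1.118 ± 0.229 in WT untrained mice (SD, n = 4 each), with KO trained 4 at 2.48 RPKM the highest library. Col16a1 was highest in KO trained 3 and KO untrained 3, at 1.84 and 1.85 RPKM, against at most 1.45 RPKM in any WT library. Col22a1 was at 2.67, 3.52, 3.45 and 2.59 RPKM in KO trained mice, against 3.63, 2.88, 3.65 and 3.85 RPKM in WT trained mice. Its KO untrained values were 2.81, 2.98, 4.72 and 3.52 RPKM and its WT untrained values 3.28, 3.24, 3.19 and 3.11 RPKM. The groups overlap, and the largest of its differences between groups of 4 was KO minus WT in trained mice, -0.20 ± 0.14 (adjusted p = 0.543 in limma).

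Type VIII collagen is a short-chain network collagen best known from vessels and the cornea. Col8a2 (1 RPKM in 4 libraries) was at 0.736, 1.07, 1.07 and 0.958 RPKM in WT trained mice, against 0.746, 0.648, 0.565 and 0.458 RPKM in WT untrained mice. It was at 0.531, 1.01, 1.07 and 0.493 RPKM in KO trained mice, against 0.654, 0.655, 0.883 and 0.495 RPKM in KO untrained mice. WT trained 1 lies within the WT untrained range, and the KO trained libraries fall into a high and a low pair. Training in WT gave 0.59 ± 0.23 (unadjusted p = 0.0214, adjusted p = 0.312 in limma), training in KO 0.14 ± 0.23, and KO minus WT in trained mice -0.33 ± 0.23 (adjusted p = 0.532 in limma). Col8a1 had means of 1.198 ± 0.399 RPKM in KO trained, 1.15 ± 0.184 in KO untrained, 1.22 ± 0.249 in WT trained and 0.949 ± 0.135 in WT untrained mice (SD, n = 4 each).

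**Figure D4:**
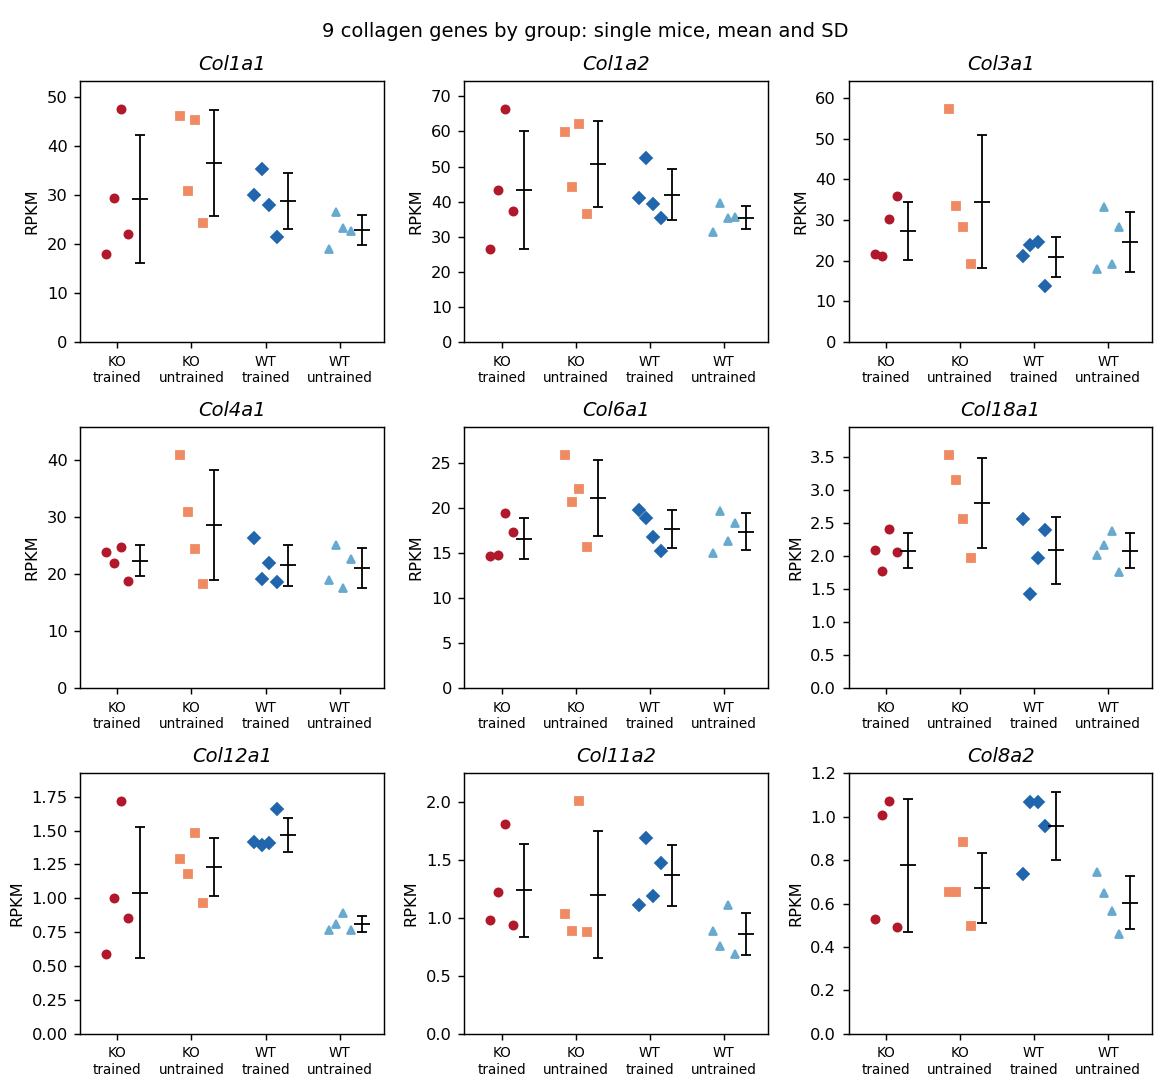
RPKM of 9 collagen genes in every mouse (points) with the group mean and SD (bars), groups from left to right KO trained, KO untrained, WT trained and WT untrained, axes from 0. Col12a1 separates WT trained (1.39 to 1.66 RPKM) from WT untrained mice (0.764 to 0.891 RPKM), whereas Col1a1, Col4a1 and Col6a1 show their widest values in KO mice.

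For 4 pairs of chains that are built into the same protein, the ratio of levels varied less over the libraries than the levels did. The ratio of Col1a1 to Col1a2 in RPKM averaged 0.675 over 16 libraries with a coefficient of variation of 7.33%, against 32.6% for Col1a1 and 26.7% for Col1a2 themselves. The ratio of Col4a1 to Col4a2 averaged 1.29 with a coefficient of variation of 4.28%, against 25.3% and 22.6% for the genes. Col6a1 to Col6a2 averaged 1.099, with a coefficient of variation of 7.52%, and Col5a1 to Col5a2 averaged 1.005, with one of 7.92%. Ratios between chains of different proteins were not computed, so this is not shown to be particular to chains of 1 protein. Other chains of 1 type were less even, as described after their values were seen. The ratio of Col6a3 to Col6a1 ran from 0.238 to 0.407 with a coefficient of variation of 16.4%, against 26.6% and 17.0% for the genes. That of Col6a3 to Col6a2 had one of 12.2%, against 26.6% and 20.8%. The ratio of Col5a3 to Col5a1 ran from 0.554 to 0.947 with one of 13.3%, against 25.3% and 21.3%. The ratio of Col8a1 to Col8a2 ran from 0.881 to 3.496, and its coefficient of variation of 39.5% exceeded those of Col8a1 (22.9%) and Col8a2 (29.96%).

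Between groups, 4 ratios were compared in 4 comparisons by exact permutation. The smallest two-sided exact p was 0.0571 (adjusted p = 0.914), for Col1a1 to Col1a2 at 0.714 ± 0.0448 in KO untrained mice, against 0.642 ± 0.0278 in WT untrained mice (SD, n = 4 each). With 4 against 4 libraries the smallest exact p is 0.0286, and a single ratio at that p would have an adjusted p of 0.457 over the 16 tests, so these tests say nothing of whether the ratios are alike between groups. A ratio within a library does not depend on its total.

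Over the 16 libraries, Col1a1 varied with Col1a2 more closely than with any other of the 20 genes (Pearson r = 0.983, Spearman rho = 0.962, each with a permutation p of 1e-05, the smallest that 100000 permutations can give; adjusted p = 0.00019 over 19 relations). Without KO trained 3 and KO untrained 1, the libraries farthest from the median of Col1a1, r was 0.973. Next came Col6a1 (r = 0.785, rho = 0.756, permutation p = 0.00039 and 0.00129, adjusted p = 0.0037 and 0.0123; r = 0.747 without those libraries) and Col12a1 (r = 0.715, rho = 0.668, permutation p = 0.00197 and 0.00556, adjusted p = 0.0125 and 0.0215; r = 0.669 without them). All 19 r were above 0, and 13 had an adjusted p under 0.05 by Pearson and 5 by Spearman. The share of all tested genes that varied with Col1a1 at that level was not computed, so these counts do not show a relation particular to collagens.

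For Col3a1, r with Col1a1 was 0.561 (rho = 0.509, permutation p = 0.0231 and 0.0468, adjusted p = 0.0367 and 0.0741) and 0.345 without those libraries, so this relation rests in part on them. Other relations fell likewise, from 0.618 to 0.396 for Col5a2, from 0.580 to 0.388 for Col4a1 and from 0.548 to 0.378 for Col4a2. Of the 13 relations only that of Col11a2 rose, from 0.601 to 0.622. Within groups, taking each library's deviation from its group mean, r with Col1a1 was 0.979 for Col1a2, 0.779 for Col6a1, 0.788 for Col12a1 and 0.541 for Col3a1. Both genes of a pair are read in the same library, and r on quantile-normalized values ran from 0.03 to 0.981 with 6 of 19 under an adjusted p of 0.05.

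By the largest r among the other 19 genes, over 190 pairs in all, Col4a1 was closest to Col4a2 (r = 0.983, rho = 0.932, permutation adjusted p = 0.000173 and 0.000317). Col5a1 was closest to Col5a2 (r = 0.939, rho = 0.924), Col3a1 to Col5a2 (r = 0.939, rho = 0.941) and Col6a1 to Col6a2 (r = 0.924, rho = 0.909). After the farthest pair of libraries was left out of each, these r were 0.962, 0.898, 0.911 and 0.905. Other genes were closest by r to a chain of another type: Col5a3 to Col4a2 (r = 0.912, rho = 0.835), Col6a3 to Col4a1 (r = 0.867, rho = 0.718), Col15a1 to Col5a1 (r = 0.902, rho = 0.874) and Col8a1 to Col14a1 (r = 0.644, rho = 0.509). For Col6a3 this order was not clear, since Col6a2 of its own type had the same rounded r of 0.867 and a higher rho of 0.800. After the farthest libraries of each pair were left out, r of Col6a3 was 0.701 with Col6a2 and 0.621 with Col4a1. Col8a1 and Col8a2 had an r of 0.167 (rho = 0.182). Col11a2 was closest to Col8a2 (r = 0.772, rho = 0.788, permutation adjusted p = 0.0023 and 0.00461) and Col12a1 to Col11a2 (r = 0.750, rho = 0.788, permutation adjusted p = 0.00393 and 0.00463). The lowest r of all pairs was -0.387, between Col3a1 and Col22a1 (rho = -0.459, permutation adjusted p = 0.23 and 0.13).

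**Figure D5:**
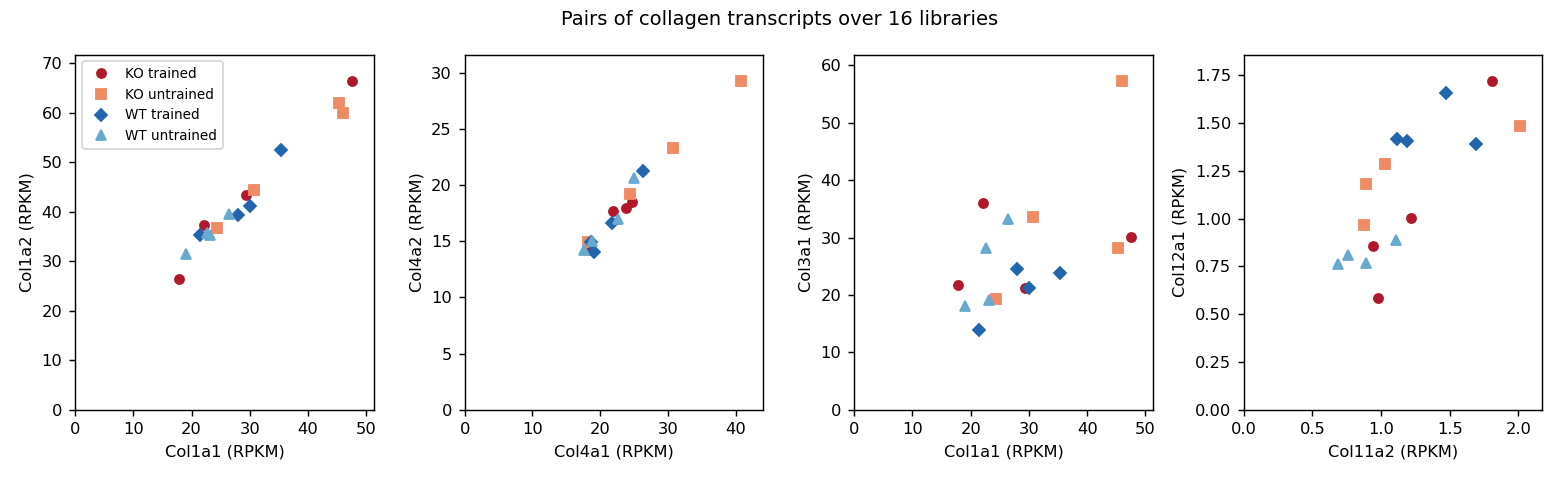
RPKM of 4 pairs of collagen genes, 1 point per mouse with the marker giving its group, linear axes from 0. Col1a2 against Col1a1 and Col4a2 against Col4a1 lie along a line (r of 0.983 on the log2 scale for each), whereas Col3a1 against Col1a1 scatters (r = 0.561) and Col12a1 against Col11a2 lies between (r = 0.750).

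Genes that make, assemble or break down collagen were read from 7 lists, which were chosen with earlier results of these data known. None of their tested members passed in limma in any of the 5 comparisons, with or without KO untrained 1. Of the folding and hydroxylation genes, which modify chains in the endoplasmic reticulum, 16 of 18 were tested and 16 of 16 had lower means with training in KO (median -0.10). The smallest p there belonged to P4ha2, a subunit of the proline hydroxylase (-0.27 ± 0.11, adjusted p = 0.301), Plod1, a lysine hydroxylase (-0.23 ± 0.11, adjusted p = 0.355), and Fkbp10, a chaperone (-0.33 ± 0.16, adjusted p = 0.370), all in limma. With training in WT 12 of 16 were above 0 (median 0.11), led by Leprel4 (0.41 ± 0.19, adjusted p = 0.420 in limma), an older symbol of P3h4.

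Of the genes for propeptide removal and cross-linking, 8 of 12 were tested. All 8 were below 0 with training in KO (median -0.21) and 5 of 8 above 0 with training in WT (median 0.04). Lox, the lysyl oxidase that starts collagen cross-links, had a mean of 2.44 ± 0.694 RPKM in KO trained, 3.38 ± 0.559 in KO untrained, 2.86 ± 0.562 in WT trained and 2.21 ± 0.188 in WT untrained mice (SD, n = 4 each). Its difference with training was -0.48 ± 0.17 in KO (adjusted p = 0.264 in limma) and 0.35 ± 0.17 in WT (adjusted p = 0.440 in limma).

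Of 12 fibril partners, proteins that coat or bind fibrils, 12 were tested. Of these 11 were below 0 with training in KO (median -0.29), 11 above 0 with training in WT (median 0.26) and 12 above 0 in KO against WT without training (median 0.33). Sparc, a collagen-binding glycoprotein, gave -0.41 ± 0.14 with training in KO (adjusted p = 0.258 in limma) and Bgn, the proteoglycan biglycan, -0.39 ± 0.14 (adjusted p = 0.266 in limma). With training in WT the leading members were Fmod, fibromodulin (0.73 ± 0.26, adjusted p = 0.258 in limma), Kera, keratocan (0.87 ± 0.33, adjusted p = 0.304 in limma), and Tnc, tenascin C (0.59 ± 0.27, adjusted p = 0.403 in limma).

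All 10 basement membrane partners, laminins, nidogens and proteoglycans, were tested, and 10 of 10 were below 0 with training in KO (median -0.17), led by Lamb2, a laminin chain (-0.19 ± 0.07, adjusted p = 0.279 in limma). With training in WT 6 of 10 were above 0 (median 0.01), led by Agrn, agrin (0.24 ± 0.11, adjusted p = 0.376 in limma). Of the breakdown genes, proteases and their inhibitors, 7 of 12 were tested, with 7 below 0 in KO (median -0.24) and 3 above 0 in WT (median -0.01). Of the collagen receptors 5 of 9 were tested, with 3 below 0 in KO (median -0.01), Ddr1 leading at -0.37 ± 0.13 (adjusted p = 0.259 in limma), and 4 above 0 in WT (median 0.11), Ddr2 leading at 0.23 ± 0.10 (adjusted p = 0.352 in limma). Of the fibrosis-related signals 9 of 11 were tested, with 8 below 0 in KO (median -0.14) and 7 below 0 in WT (median -0.05), Il4ra, a receptor chain for interleukin-13, at -0.38 ± 0.19 in KO (adjusted p = 0.393 in limma). The background shares are those given above, 64.9% of all genes below 0 with training in KO, 52.4% above 0 with training in WT and 51.4% above 0 for KO against WT in untrained mice.

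Without KO untrained 1, the members below 0 with training in KO were 14 of 16 folding genes (median -0.09), 8 of 8 for propeptide removal and cross-linking (-0.15), 11 of 12 fibril partners (-0.21) and 10 of 10 basement membrane partners (-0.14). They were 7 of 7 breakdown genes (-0.17), 2 of 5 receptors (0.01) and 5 of 9 fibrosis-related signals (-0.06). The fibril partners were 12 of 12 above 0 in KO against WT without training (median 0.31). Lox then gave -0.39 ± 0.18 with training in KO, P4ha2 -0.16 ± 0.10, Plod1 -0.13 ± 0.10 and Il4ra -0.17 ± 0.16.

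Markers of other cells were read in the same comparisons, and their part in the collagen results was not tested. The summed level of 10 tendon markers was 100.5 to 235 RPKM in KO trained, 150.2 to 264 in KO untrained, 211 to 274 in WT trained and 124 to 159 in WT untrained libraries, none of the 10 being at 0 throughout. Of 9 tested, 8 were above 0 with training in WT (median 0.75), against 52.4% of all genes, and 7 of these stood at an unadjusted p under 0.05, against 6.11% of all genes, led by Prg4 (0.97 ± 0.20, adjusted p = 0.0513 in limma). The list was chosen with earlier results of these data known, so its counts are not independent support. In the difference of the responses 9 of 9 were below 0 (median -1.10), against 61.6% of all genes, and the median without KO untrained 1 was -1.07. Fmod and Kera are also among the fibril partners. Like Col12a1 and Col11a2, the tendon markers were high in KO trained 3 and KO untrained 3, by a median of 0.62 and 0.61 above the mean of 16 libraries on the log2 scale. This was not particular to tendon markers, as adipocyte markers were high in the same libraries. Among them Adipoq was at 35.8 RPKM in KO trained 3 and 44.1 in KO untrained 3, against a mean of 19.5 over 16 libraries. Plin1 was at 8.53 and 11.3 RPKM there, against a mean of 4.81.

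The fibro-adipogenic markers, the connective tissue cells of muscle, summed to 541 to 831 RPKM in KO trained, 669 to 871 in KO untrained, 678 to 897 in WT trained and 672 to 813 in WT untrained libraries. Dcn and Dpt are also fibril partners. In KO against WT without training, 9 of 9 of these were above 0 (median 0.19), and with training in KO 9 of 9 below 0 (median -0.20). For smooth muscle and pericytes 6 of 6 were above 0 in the first of these comparisons (median 0.16), for Schwann cells 6 of 6 (median 0.53), for macrophages 7 of 7 (median 0.16), for adipocytes 6 of 6 (median 0.69) and for endothelium 4 of 7 (median 0.02). With training in KO 5 of 6, 6 of 6, 6 of 7, 6 of 6 and 5 of 7 of them were below 0, in the same order of cell types. Without KO untrained 1, the numbers above 0 for KO against WT in untrained mice were 8 of 9 fibro-adipogenic, 6 of 6 smooth muscle and pericyte, 6 of 6 Schwann, 4 of 7 macrophage, 6 of 6 adipocyte and 3 of 7 endothelial markers. The numbers below 0 with training in KO were then 8 of 9 fibro-adipogenic, 5 of 6 smooth muscle and pericyte and 6 of 6 Schwann markers. They were 5 of 7 macrophage, 6 of 6 adipocyte and 6 of 7 endothelial markers. None of these markers passed in limma in those comparisons.

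The skeletal muscle markers summed to 72775 to 80344 RPKM in KO trained, 81101 to 82639 in KO untrained, 72616 to 82022 in WT trained and 86375 to 95518 in WT untrained libraries. In KO against WT without training 7 of 8 were below 0 (median -0.10), with training in WT 7 of 8 (median -0.22) and with training in KO 7 of 8 (median -0.06). RPKM are shares of a library's total. The part of the muscle transcripts in the collagen differences was not tested. Cartilage and bone markers were near 0: Bglap had 0 in every library, Acan, Matn3, Ibsp and Dmp1 averaged under 0.1 RPKM, and the list of 6 summed to 0.262 to 0.641 RPKM over the 16 libraries.

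Some collagen exons overlap other annotated genes in GENCODE M21, and the use of strand in counting is not given in the sources used here. Among the 20 genes Col3a1 overlaps Gm47302 on its own strand. Col4a1 and Col4a2 overlap each other at their starts on opposite strands, and Col15a1, Col5a1 and Col22a1 each overlap an opposite-strand gene. Reads of the opposite-strand overlaps cannot be assigned to 1 gene without strand. For the overlap of Col3a1 and Gm47302, strand would not separate the reads either.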

How the data were processed

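Poly(A)-selected stranded libraries of 16 gastrocnemius muscles were sequenced, per the labels' protocols. The authors deposited RPKM for 23440 genes, per the file headers. The submitters' processing notes name mm10 as the build. Aligner, counter and use of strand were not given in the sources used here. Each column name held a mouse number that its sample's labels repeat.

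Whole reads were recovered from the steps between low values (99.9992% of values above 0 within 0.01 read). They served for depth, for the floor of 3 reads and for the voom alternative; floors cover counting error only. The 10171 genes that reached 1 RPKM in 4 or more of the 16 libraries were tested on log2(RPKM + 0.1) with limma 3.58.1 (trend, robust moderation with statmod 1.5.0, R 4.3.3), 1 mean per group, 5 contrasts, two-sided p adjusted by Benjamini-Hochberg over all tested genes per contrast, threshold 0.05. Fold changes on this scale understate those of low genes. On simulated data for training in WT, the fit called 38% of 50 genes changed 1.5-fold and 100% of 49 changed 2-fold, and 11 of 9966 unchanged genes. The simulation used the same setting of the spread between mice for every gene, not the spread of the collagens. For Col1a1 the coefficient of variation was 44.8% in KO trained and 13.3% in WT untrained mice. These shares therefore do not say how often a collagen changed as much would be called.

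Chain ratios were compared by two-sided exact permutation, correlations by 100000 permutations (Python 3.11.15, SciPy 1.17.1). The members and lists were chosen with earlier results of these data known. All collagens at the threshold are named, with values in every library for the top 2 by mean in each class and the 3 with the smallest p in each contrast; Col3a1 was added after its values were seen. Partner lists give up to 3 members with the smallest p in each training contrast, of which some are printed, and marker lists their summed levels. Altogether 26 alternative settings were run. Upstream sequences and overlaps came from RefSeq (GRCm38.p6) and GENCODE M21, the build of the files.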

Additional observations from a re-analysis of the deposited data

Results flagged for a closer look

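Of 112 groups of 4 mice examined, over the 20 genes, class sums and chain ratios, 4 held a library whose gap to the nearest of the other 3 exceeded Dixon's 95% critical share of the range of the group. Chance flags about 1 in 20 groups. Col12a1 was at 1.66 RPKM in WT trained 4, above the other 3 at 1.39 to 1.41 RPKM. Col11a2 was at 2.01 RPKM in KO untrained 3, above the other 3 at 0.875 to 1.03 RPKM. Col5a3 was at 3.97 RPKM in WT untrained 2, above the other 3 at 2.82 to 2.97 RPKM. The ratio of Col5a1 to Col5a2 was 1.18 in WT trained 1, above the other 3 at 0.987 to 1.02.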

How the results depend on the processing

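The 20 collagens were refitted under 26 alternative settings, 16 of which left out 1 library each. No collagen passed in training in KO, the difference of responses or either KO against WT comparison under any of them. In training in WT the count was 0 to 1 when 1 library was left out, and 1 with only the groups compared; the gene was Col12a1. The sign of the difference was the same in every setting for 18 of 20 genes in the difference of responses, 19 in KO against WT untrained, 14 in training in KO, 13 in training in WT and 11 in KO against WT trained. The median of all genes in the difference of responses was 0.013 after quantile normalization, and 6 relations with Col1a1 then had an adjusted p under 0.05, against 13.

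Counts over all genes moved more; the cause was not tested. In training in WT, 19 became 155 with quantile normalization, 3 without a filter, 58 at 5 RPKM, 39 with a pseudocount of 1, 35 with only the groups compared, 329 with weights per library, 64 with voom, 136 at an adjusted p under 0.1 and 0 to 272 when 1 library was left out. In training in KO, 0 became 1 without a filter, 97 with weights and 0 to 106 without 1 library. In the difference of responses, 0 became 1 with quantile normalization, 1 without a filter and 0 to 2 without 1 library. In KO against WT untrained, 5 became 3 at 5 RPKM, 3 with only the groups compared and 3 to 5 without 1 library, and in trained mice 9 became 3 with only the groups compared and 2 to 9 without 1 library.

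With the replicate number as a block, 16, 4 and 5 genes passed in training in WT, KO against WT untrained and trained, 0 in the others, and 0 collagens. Over all groups, 6 of 24 same-numbered pairs correlated over 0.1 (r from -0.18 to 0.44). Between KO trained and KO untrained mice r was 0.149, 0.191, 0.442 and 0.0523 for numbers 1 to 4, and KO trained 2 correlated better with KO untrained 1 (0.207), so a pairing there was neither given by the labels nor shown for every number. Depth limits Col10a1 and Col6a4, which had at most 3 reads.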
